A study of Mus musculus with 12 samples.

Results

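Secreted mediators of splenic B cells were followed through 9 genes, namely Il18, the chemokines Ccl3, Ccl4 and Ccl22, the cytokines Il10 and Il6, and the tumour necrosis factor family ligands Tnf, Lta and Ltb. They were 9 of the 18194 genes that the platform annotation named on the array. Each was found by its gene symbol. A gene with several probe sets was to be chosen by its mean level over the 12 arrays, but each of the 9 had a single one. The genes themselves were picked with earlier results of these data known, and the p-values below, taken from a model over all tested genes, are no independent evidence of their direction. A log2 level of 4 or more on at least 2 arrays was required for a test. Of the 9 genes, 7 passed it among 9307 genes in all. Ccl22 and Il6 did not.

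The study measured RNA of follicular (FO) and marginal zone (MZ) B cells from the spleens of female C57BL/6 mice, 10 weeks old, on 12 Affymetrix arrays. All mice, controls included, carried mb1-cre(+/-), a Cre recombinase under the control of the B lineage gene mb1. Their Bcl6 gene was Bcl6(flox/flox) (called homozygous below), Bcl6(+/flox) (heterozygous) or Bcl6(+/+) (wild-type). Each of the 6 groups, made of 2 cell types and 3 genotypes, had 2 arrays. Spleen cells were first depleted magnetically with antibodies to T cell antigens (CD3, CD90 and CD5), myeloid antigens (Gr-1 and CD11b among others), TER119, CD138, CD95 and CD43. AA4.1-negative B220+ cells were then sorted, FO cells as CD23+ with intermediate CD21 and MZ cells as CD23low with high CD21. Whether replicate arrays stem from separate mice is not said in the labels.

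IL-18 is made as a precursor that caspase-1 cleaves, and it acts with other signals to raise interferon-gamma production in T and NK cells. CCL3 and CCL4 are chemokines that attract leukocytes, CCL3 among others through the receptor CCR1, while CCL22 attracts T cells through CCR4. IL-10 restrains inflammation, and MZ B cells and their precursors are among the B cells known to produce it. Lymphotoxin made by B cells maintains follicular dendritic cells and the splenic marginal zone. BCL6 is a transcriptional repressor, best known in germinal centre B cells, and several chemokine and cytokine genes are among those it is reported to repress in lymphoid and myeloid cells.

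Promoter sequences in a RefSeq table (build GRCm38.p6) ran from 250 bases before to 50 bases after the start of a gene and were listed for 7 of the 9 genes, all but Ccl4 and Il10. Each window was searched on both strands for TGANTCA, which AP-1 factors bind, for GGNNTTTCC, a form of the kappaB motif, and for TTCCTNGAA, a form of the BCL6 motif. Windows are shown for Il18, whose level was ordered by Bcl6 genotype in both cell types, for Ccl3, whose level followed the immediate early genes of an array, and for Ltb, 1 of the 2 genes with a match. Capitals mark the match and all other bases are in lower case.
Il18 (chr9:50554450-50554749, plus strand): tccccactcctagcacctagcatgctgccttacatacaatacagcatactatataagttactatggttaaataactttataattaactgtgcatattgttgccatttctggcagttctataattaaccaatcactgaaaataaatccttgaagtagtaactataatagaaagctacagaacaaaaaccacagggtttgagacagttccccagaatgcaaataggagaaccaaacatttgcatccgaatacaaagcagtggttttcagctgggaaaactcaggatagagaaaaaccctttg
Ccl3 (chr11:83649329-83649628, minus strand): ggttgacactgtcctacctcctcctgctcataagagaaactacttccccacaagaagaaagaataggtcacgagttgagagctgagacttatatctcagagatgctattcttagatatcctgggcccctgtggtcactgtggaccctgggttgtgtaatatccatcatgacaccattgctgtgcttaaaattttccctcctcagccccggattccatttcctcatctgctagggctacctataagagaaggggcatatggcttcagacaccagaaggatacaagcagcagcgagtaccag
Ltb (chr17:35194257-35194556, plus strand): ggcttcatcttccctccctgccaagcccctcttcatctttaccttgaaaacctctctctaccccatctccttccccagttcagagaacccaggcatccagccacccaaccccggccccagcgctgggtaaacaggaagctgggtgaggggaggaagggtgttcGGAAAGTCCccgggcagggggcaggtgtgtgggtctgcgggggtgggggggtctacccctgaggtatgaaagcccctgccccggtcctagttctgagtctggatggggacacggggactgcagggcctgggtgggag
The match in Ltb, GGAAAGTCC, is the kappaB form read from the opposite strand and starts at position -87, counted in bases from the gene's start. Il6 held TGAGTCA at position -249 and GGATTTTCC at position -43. None of these letters stood in the windows of Il18, Ccl3, Ccl22, Tnf and Lta. Among 32851 mouse promoters of the same table and length, 7.81% held TGANTCA, 5.82% held GGNNTTTCC and 1.59% held TTCCTNGAA. In the same table Ccl3 and Ccl4 are neighbours on chromosome 11. Tnf and Lta are neighbours on chromosome 17, where Ltb is separated from Tnf by a microRNA gene alone.

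Levels are log2 values and have a shared minimum, 2.22 on every MZ array and 2.21 on every FO array, at which unexpressed genes collect. With unequal minima the cell types may have been normalized in separate runs, so cell type and run cannot be told apart. The arrays carried the sorted cell types' markers. Cr2, which encodes CD21, lay at 14.05 to 14.88 on MZ and 12.07 to 13.42 on FO arrays, and Fcer2a, which encodes CD23, at 8.85 to 9.50 on MZ and 13.63 to 14.25 on FO arrays. Replicates correlated at 0.975 to 0.984 in 5 groups and at 0.944 in the MZ wild-type group. Its replicate 1 lacked 5' signal of the Gapdh control, with a 3' minus 5' difference of 6.90, against -0.20 to 0.63 on the other arrays. Bcl6 itself had probe sets of opposite direction. One read 2.36 and 2.48 in FO homozygous against 4.94 and 5.61 in FO wild-type cells and lay at the minimum on all MZ arrays. The other read higher in homozygous than in wild-type cells of both types. The deleted exons and those under each probe set are not given in the sources used here. Neither probe set therefore checks the genotype labels.

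Il18 was the gene of the set whose level was ordered by Bcl6 genotype in both cell types. In FO cells it measured 10.23 and 10.50 on the homozygous arrays, 8.89 and 8.81 on the heterozygous arrays and 7.85 and 8.14 on the wild-type arrays. In MZ cells it measured 9.97 and 10.11 on the homozygous arrays, 9.25 and 8.999 on the heterozygous arrays and 8.90 and 8.67 on the wild-type arrays. In both cell types every homozygous array lay above every heterozygous array, and every heterozygous array above every wild-type array. For homozygous against wild-type, arrays higher without overlap were found in 18% of tested genes in FO and 9.96% in MZ cells. For heterozygous against wild-type they were found in 12.8% in FO and 10.4% in MZ cells. The stepwise order without overlap, chosen for description after the values were seen, held for 2.82% of tested genes in FO, for 0.763% in MZ cells and for 8 genes of 9307 (0.086%) in both. The other 7 were Anxa6, Ceacam1, Inf2, Matk, Ppp1r14b, Sil1 and Slc25a4.

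**Figure D1:**
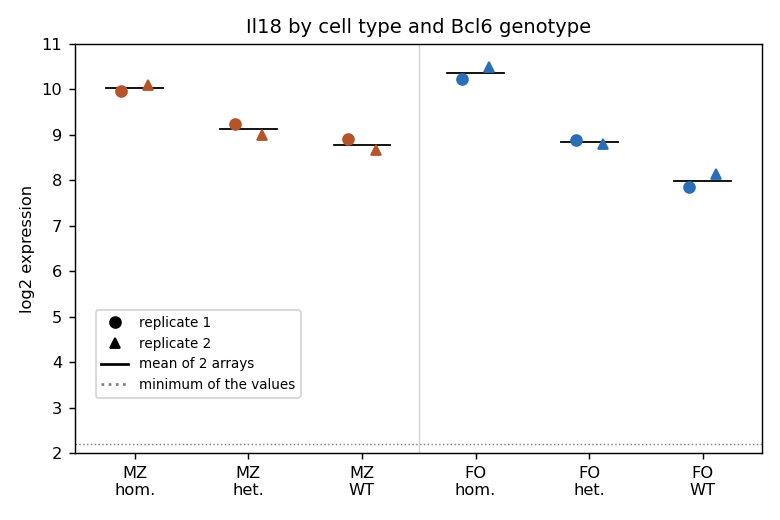
Il18 level (log2 expression) on each of the 12 arrays, by cell type (MZ orange, FO blue) and Bcl6 genotype, with circles for replicate 1, triangles for replicate 2, a bar at the mean of 2 arrays and a dotted line at the minimum of the values. The homozygous arrays, at 9.97 to 10.50, lie above all heterozygous arrays, at 8.81 to 9.25, and above all wild-type arrays, at 7.85 to 8.90.

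In FO cells Il18 averaged 10.37 ± 0.19 in homozygous and 7.998 ± 0.21 in wild-type cells (SD, n = 2 each). The change was 2.37 ± 0.18 on the log2 scale (SE, with a 95% confidence interval of 1.96 to 2.79), a 5.17-fold rise (limma adjusted p = 0.00161). It was the single one of the 7 tested members past the threshold of 0.05 in this comparison, where 0.43% of all tested genes passed. The same change in a model of the FO arrays alone, with fewer residual degrees of freedom, had a limma adjusted p of 0.0916. In these bulk samples a change in the share of cells that make an RNA and a change in RNA per cell cannot be told apart.

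In MZ cells Il18 averaged 10.04 ± 0.10 in homozygous and 8.78 ± 0.17 in wild-type cells (SD, n = 2 each). The difference of 1.26 ± 0.18 (95% confidence interval 0.84 to 1.67) did not pass adjustment over all genes (limma adjusted p = 0.11). None of the 7 tested members passed limma's test in MZ cells, where 0.0645% of all tested genes did. Il18 alone of the 7 had a p under 0.05 before adjustment. Without MZ wild-type replicate 2 the difference was 1.14 and passed (limma adjusted p = 0.034), with the array of low 5' signal as the lone control, assumed to vary like the other groups. The average of the MZ and FO changes was 1.81 ± 0.13, a 3.52-fold rise (limma adjusted p = 8.51e-04), and again Il18 alone of the set passed, beside 0.462% of all tested genes. This average passed with each of the 12 arrays left out in turn (limma adjusted p from 0.00251 to 0.00877).

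The heterozygous arrays lay between. Heterozygous FO cells were 0.85 ± 0.18 above wild-type (limma adjusted p = 1, and 0.00136 before adjustment) and heterozygous MZ cells 0.34 ± 0.18 above wild-type (limma adjusted p = 0.792). Neither passed, and no member of the set passed either comparison, in which limma called 0% of tested genes in FO (0 genes, with 184 at an unadjusted p under 0.05) and 0.0107% in MZ cells. Before adjustment Il18 and Tnf had a p under 0.05 in FO and Il10 in MZ cells. Homozygous minus heterozygous was 1.52 ± 0.18 in FO cells (limma adjusted p = 0.0426, where 0.0752% of tested genes passed) and 0.92 ± 0.18 in MZ cells (limma adjusted p = 0.457, where 0.0322% passed). This comparison was added after the values were seen. The average over both cell types was 1.22 ± 0.13 (limma adjusted p = 0.0202, where 0.0645% passed). The FO call was lost without any 1 array (limma adjusted p from 0.0516 to 0.398), and the averaged one without any 1 heterozygous or homozygous array (0.0703 to 0.139).

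Between the cell types the sign of the Il18 difference varied with the genotype, and only the wild-type difference passed. MZ cells were 0.79 ± 0.18 above FO cells in wild-type mice (limma adjusted p = 0.0156). They were 0.27 ± 0.18 above FO cells in heterozygous mice (limma adjusted p = 0.315) and 0.33 ± 0.18 below them in homozygous mice, a difference coded as -0.33 (limma adjusted p = 0.263). Under the other settings that kept all 12 arrays, the homozygous difference ran from -0.33 to -0.08 (limma adjusted p from 0.143 to 0.862). Its size thus depended on how the arrays were scaled and modelled. The arrays of the cell types did not overlap in any genotype, with MZ higher for 23.1% of tested genes in wild-type and 23.6% in heterozygous mice and lower for 42.8% in homozygous mice. The wild-type call was lost when FO wild-type replicate 1 was left out (0.64, limma adjusted p = 0.0944) or MZ wild-type replicate 1 was (0.67, limma adjusted p = 0.0763). The homozygous effect in MZ minus that in FO was -1.11 ± 0.26 (95% confidence interval -1.70 to -0.53), which did not pass over all genes (limma adjusted p = 0.604), where 0.0107% of tested genes passed.

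The genes that ripen and release IL-18 had no calls with homozygous deletion, in comparisons that called few genes of any kind. Of the 9 measured genes of this list, which holds inflammasome sensors, caspases and the pore protein gasdermin D, 7 passed the filter on low levels. None of the 7 was called higher or lower with homozygous deletion in FO cells, in MZ cells or in the average. These comparisons called 0.43%, 0.0645% and 0.462% of all tested genes, so an absence of calls says little about the 7. The median change of the 7 in FO cells was -0.16, against 0.00 for all tested genes. Casp1, the protease that cleaves the IL-18 precursor, lay at 10.21 to 11.37 on all 12 arrays, and its homozygous change was -0.28 ± 0.38 in FO cells (limma adjusted p = 0.993). Pycard, the inflammasome adaptor, lay at 10.64 to 11.30. Aim2, a DNA sensor, had the smallest p of the list in FO cells, with -0.99 ± 0.58 (limma adjusted p = 0.885). Nlrp3, an inflammasome sensor, stayed at the minimum on every array, 2.23 at most. The IL-18 receptor genes Il18r1 and Il18rap were also at the minimum, with no value above 2.24, and Il18bp, which encodes a secreted IL-18 antagonist, reached 2.86.

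Macrophages and dendritic cells are other sources of Il18, Tnf and the chemokines, so their markers are given here. The mean of 10 macrophage or monocyte markers was 3.96 and 3.42 in FO homozygous, 4.14 and 3.41 in FO heterozygous, and 4.02 and 3.31 in FO wild-type cells. In MZ cells it was 4.41 and 3.60 in homozygous, 4.37 and 3.65 in heterozygous, and 4.54 and 3.61 in wild-type cells. Replicate 1 was thus the higher array in every group, and genotypes overlapped. On each array 3 to 6 of the 10 reached a level of 4. Measured were C1qb, a complement gene, at 5.66 to 7.75 on MZ and 5.14 to 6.74 on FO arrays, and Cd68 at 6.80 to 7.85 on MZ and 4.19 to 6.13 on FO arrays. Adgre1, a macrophage surface receptor, reached 6.41, Lyz2 6.68, Vcam1 6.03 and Csf1r 5.69. C1qa reached 3.15 and Fcgr1 2.69, and Cd14 and Marco were at the minimum on all arrays. The part of other cells in the Il18 levels was not tested. The dendritic list averaged 2.65 to 3.33, with 1 gene at 4 or more on every array. The T cell list averaged 2.27 to 2.54. Of it, Cd8a read 2.55 to 2.81 on MZ and 4.22 to 4.53 on FO arrays, while the other 6 genes were within 0.5 of the minimum on all arrays. The NK list averaged 2.21 to 2.26.

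Of the 9 genes, Ccl3 varied most between the arrays of one group. It measured 9.49 and 5.02 in MZ homozygous, 2.40 and 4.63 in MZ heterozygous, and 10.01 and 4.35 in MZ wild-type cells. In FO cells it measured 6.52 and 3.01 in homozygous, 5.83 and 2.22 in heterozygous, and 2.72 and 6.89 in wild-type cells. The highest value, 10.01, came from MZ wild-type replicate 1, the array with the low 5' signal. Replicates of a group differed by 2.23 to 5.66, and genotypes overlapped in both cell types except that the MZ homozygous arrays lay above the MZ heterozygous ones, as for 18.4% of tested genes. The homozygous change was accordingly imprecise, at 0.08 ± 2.43 in MZ (95% confidence interval -5.49 to 5.64, limma adjusted p = 1) and -0.04 ± 2.43 in FO cells (95% confidence interval -5.60 to 5.53, limma adjusted p = 1). MZ minus FO over the 3 genotypes was 1.45 ± 1.41 (limma adjusted p = 0.43). A change of several log2 units in Ccl3 was not detectable with these arrays.

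What Ccl3 followed from array to array was the level of the immediate early genes, which are switched on within minutes of B cell stimulation. The mean of 24 such genes was 10.97 and 9.47 in MZ homozygous, 7.92 and 9.31 in MZ heterozygous, and 11.03 and 9.74 in MZ wild-type cells. In FO cells it was 11.13 and 9.96 in homozygous, 10.98 and 9.78 in heterozygous, and 8.81 and 10.78 in wild-type cells. In all 6 groups the array with the higher immediate early mean had the higher Ccl3, including FO wild-type and MZ heterozygous, where that array was replicate 2. Of all tested genes, 7.37% followed the mean in 6 of 6 groups. Differences that were also at least 2.23 in every group were found in 2 genes (0.0215%), Ccl3 and Nr4a2, an orphan nuclear receptor of the immediate early list itself. The cutoff of 2.23 was the smallest replicate difference of Ccl3 itself, so Ccl3 is in this count by construction. The study's rule for these genes already named this relation, so it is given as a description without a test.

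Single immediate early genes followed the mean to different degrees. Nr4a1, a nuclear receptor induced by antigen receptor signals, measured 12.58 and 10.88 in MZ homozygous, 8.11 and 10.64 in MZ heterozygous, and 12.44 and 10.99 in MZ wild-type cells. Egr1, a zinc finger factor, measured 11.06 and 10.19 in FO homozygous, 11.33 and 10.59 in FO heterozygous, and 9.70 and 12.45 in FO wild-type cells. Fos, a subunit of AP-1, measured 11.57 and 14.98 in FO wild-type cells, where Ccl3 was 2.72 and 6.89. In FO homozygous cells, by contrast, Fos was 14.30 and 14.31 while Ccl3 was 6.52 and 3.01, so Fos alone did not order the arrays as Ccl3 did. In MZ wild-type cells Ccl3 was 10.01 and 4.35, the first on the array with the low 5' signal. Junb (7.41 and 10.02), Jun (10.73 and 12.01) and Ier2 (9.73 and 10.18) ran opposite to Ccl3 there. So did Btg2 (8.60 and 10.90), Gadd45b (6.79 and 9.22) and Dusp2 (10.21 and 10.93). No other gene of the list did, and these were picked after their values were seen. None of the 23 tested immediate early genes was called with homozygous deletion in either cell type or the average. Of all tested genes 0.0645% to 0.462% were.

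**Figure D2:**
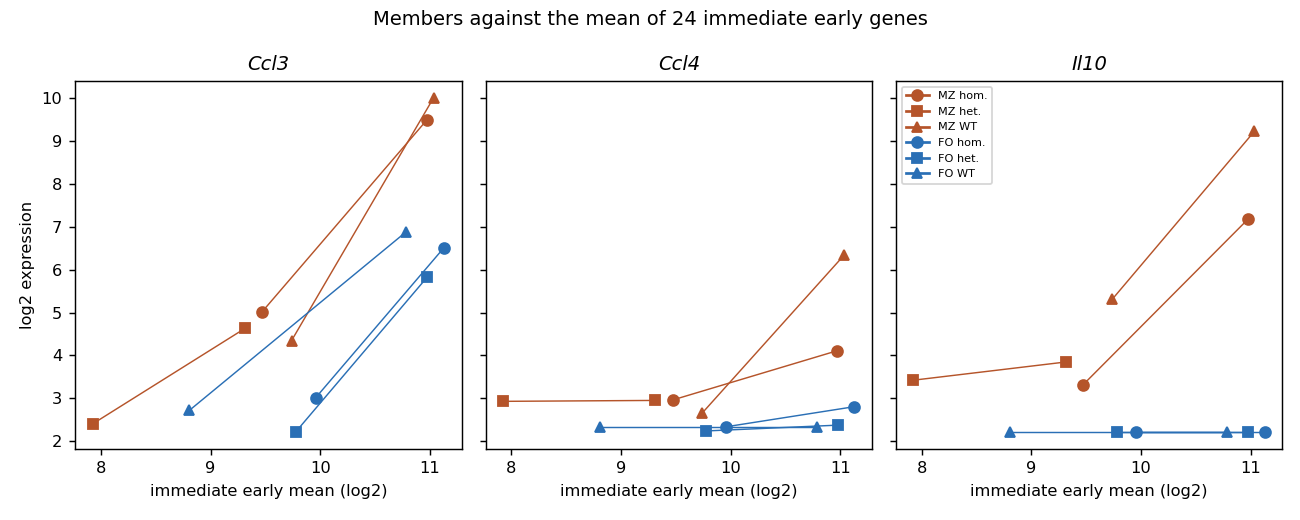
Level of Ccl3, Ccl4 and Il10 (log2 expression) against the mean of 24 immediate early genes on the same array (log2), with a line joining the 2 arrays of each group, MZ orange and FO blue, circles homozygous, squares heterozygous and triangles wild-type. All 6 Ccl3 lines slope upward, and Il10 lies at the minimum on all 6 FO arrays.

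Some neutrophil markers moved with part of this pattern. S100a8, a calcium-binding protein abundant in neutrophils, read 7.63 in MZ homozygous replicate 1, 8.11 in MZ wild-type replicate 1, 9.17 in FO homozygous replicate 1 and 7.55 in FO heterozygous replicate 1. It read 2.42 to 2.66 on the other 8 arrays. S100a9 behaved alike, and 2 or 3 of the 8 neutrophil markers reached 4 on those 4 arrays and none on the others. Camp reached 6.28 and Ltf 3.08, while Csf3r, Cxcr2, Elane and Mpo stayed at or near the minimum on all arrays, 2.30 at most. The 4 arrays were also the higher Ccl3 arrays of their groups, but in FO wild-type replicate 2, with Ccl3 at 6.89, S100a8 was 2.61 and S100a9 was at the minimum. The part of other cells in the Ccl3 values was not tested.

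Ccl4, the chromosomal neighbour of Ccl3, was low. It measured 4.11 and 2.96 in MZ homozygous, 2.93 and 2.95 in MZ heterozygous, and 6.34 and 2.65 in MZ wild-type cells. In FO cells it measured 2.81 and 2.34 in homozygous, 2.37 and 2.24 in heterozygous, and 2.34 and 2.34 in wild-type cells. Within each genotype the MZ arrays lay above the FO arrays, as for 21% of tested genes in homozygous cells. Ccl4 passed the filter through 2 MZ arrays, the ones with the highest Ccl3. These included MZ wild-type replicate 1, at 6.34, the array with the low 5' signal. Replicates of Ccl4 differed in the direction of the immediate early mean in 5 of 6 groups. The homozygous change was -0.96 ± 0.96 in MZ (limma adjusted p = 0.857) and 0.23 ± 0.96 in FO cells (limma adjusted p = 1), and MZ minus FO was 1.25 ± 0.55 (limma adjusted p = 0.0976). The MZ minus FO value is a description, since Ccl4 entered the test through MZ arrays alone. Its SE can be too small, since the FO arrays near the minimum varied little. Deviations from the group means correlated at 0.73 between Ccl3 and Ccl4 over 12 arrays, a description in which the arrays of a group mirror each other and MZ wild-type weighs most.

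Ccl22 was at or near the minimum on all 12 arrays, 2.24 at most, and gave no comparison. The other chemokines were mostly silent as well. Of 23 on the array, 2 passed the filter on low levels. Neither was called with homozygous deletion, where 0.0645% to 0.462% of all tested genes were. Ccl25, known as a thymic and gut chemokine, was 1.42 ± 0.18 higher in MZ than in FO cells (limma adjusted p = 2.65e-04), and Ccl27a was 1.88 ± 0.15 lower, coded as -1.88 (limma adjusted p = 1.58e-05). Ccl27a lay below 4 on every MZ array and entered the test through FO arrays alone. Ccl25 reached 4 on FO homozygous replicate 1 alone among the FO arrays, and so passed the filter through MZ arrays. Both differences are a description. Ccl5 read 5.48 on MZ wild-type replicate 1, the array with the low 5' signal, and lay at the minimum elsewhere. In that comparison, MZ minus FO averaged over the 3 genotypes, 44.5% of all tested genes passed the threshold, and the median of all tested genes was -0.17.

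Il10 was found in MZ cells. It measured 7.17 and 3.31 in MZ homozygous, 3.42 and 3.85 in MZ heterozygous, and 9.23 and 5.31 in MZ wild-type cells. The 9.23 came from MZ wild-type replicate 1, the array with the low 5' signal. On all 6 FO arrays Il10 lay at the minimum. It passed the filter on low levels through 3 MZ arrays, and so entered the test by way of the cell type in which it is high. All 6 MZ arrays thus lay above all 6 FO arrays, as did 11.4% of the tested genes. MZ minus FO over the 3 genotypes was 3.17 ± 0.78 (limma adjusted p = 0.0107). This value is given as a description, since a gene that enters the test this way had to differ, and its size depends on the background correction because FO cells were at the minimum. The FO arrays, all at the minimum, have no spread and pull down the residual SD of the model, so the SE and p can be too small. With 1 array left out at a time the difference was 2.52 to 3.82.

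Between genotypes Il10 did not pass. The homozygous change in MZ cells was -2.03 ± 1.35 (95% confidence interval -5.11 to 1.05, limma adjusted p = 0.813). The heterozygous change was -3.64 ± 1.35 (limma adjusted p = 0.792, and 0.0259 before adjustment), with both heterozygous arrays below both wild-type arrays, as for 17.8% of tested genes. This change is a description, since both wild-type arrays and no heterozygous array reached the filter level of 4. Like Ccl3, Il10 was higher on the array with the higher immediate early mean in all 3 MZ groups. The MZ heterozygous arrays, at 7.92 and 9.31, had the lowest immediate early means of the MZ groups, and the part of this in the Il10 difference was not tested. By genotype, MZ minus FO was 3.03 ± 1.35 in homozygous (limma adjusted p = 0.164), 1.42 ± 1.35 in heterozygous (limma adjusted p = 0.482) and 5.06 ± 1.35 in wild-type cells (limma adjusted p = 0.0288). These values too are a description, since Il10 entered the test through MZ arrays alone. The wild-type call ended when MZ wild-type replicate 1 was left out (3.10, limma adjusted p = 0.146) and without either FO wild-type array (limma adjusted p = 0.103 and 0.105).

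Il6, which supports plasma cell differentiation and acute phase responses, stayed at or near the minimum on all arrays and was not tested. Its receptor genes were measured. Il6ra was lower by 1.88 in MZ than in FO cells (-1.88 ± 0.23, limma adjusted p = 2.18e-04), and Il6st, the shared signal-transducing chain, was 0.93 ± 0.14 higher (limma adjusted p = 7.20e-04). Of the 14 receptor and binding partner genes on the array, 6 passed the filter. In MZ cells 2 were called higher and 1 lower, beside 16.2% of all tested genes higher and 28.2% lower. None was called with homozygous deletion, where 0.0645% to 0.462% of all tested genes were. The second one higher was Ccr1, a CCL3 receptor, with 8.21 to 8.82 on MZ and 4.51 to 7.92 on FO arrays (3.10 ± 0.44, limma adjusted p = 5.75e-04). The IL-10 receptor chains Il10ra and Il10rb were measured on every array and not called (-0.56 ± 0.30, limma adjusted p = 0.167, and -0.42 ± 0.23, limma adjusted p = 0.176). Ccr3, Ccr4 and the lymphotoxin beta receptor gene Ltbr lay at the minimum.

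Tnf, an inflammatory ligand also needed to organise B cell follicles, had its lowest group means in homozygous cells, 4.87 in MZ and 5.05 in FO cells. It measured 5.13 and 4.96 in FO homozygous, 4.34 and 6.40 in FO heterozygous, and 6.52 and 7.59 in FO wild-type cells. In MZ cells it measured 4.58 and 5.16 in homozygous, 5.62 and 5.35 in heterozygous, and 6.17 and 5.26 in wild-type cells. The homozygous arrays lay below the wild-type arrays without overlap in both cell types, as 15.9% of tested genes did in FO and 21.3% in MZ cells. In MZ cells they also lay below the heterozygous arrays, as for 20.4% of tested genes. The difference was -2.01 ± 0.64 in FO (95% confidence interval -3.47 to -0.54, limma adjusted p = 0.412), -0.84 ± 0.64 in MZ (limma adjusted p = 0.828) and -1.42 ± 0.45 in the average (limma adjusted p = 0.349). None passed adjustment over all genes, so the decrease is a difference in values and not a call. Tnf did not follow the immediate early mean, with the same direction in 3 of 6 groups.

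Lta, which forms soluble lymphotoxin and, with LTB, the membrane form, measured 7.66 and 8.37 in FO homozygous, 8.72 and 9.19 in FO heterozygous, and 9.07 and 9.43 in FO wild-type cells. In MZ cells it measured 8.32 and 8.69 in homozygous, 8.57 and 9.02 in heterozygous, and 8.08 and 9.29 in wild-type cells. The FO homozygous arrays lay below the wild-type arrays, as for 15.9% of tested genes, and below the heterozygous arrays, as for 11.6%, while the MZ genotypes overlapped. The difference was -1.23 ± 0.42 in FO (limma adjusted p = 0.472) and -0.18 ± 0.42 in MZ cells (limma adjusted p = 0.948). Replicate 2 was higher than replicate 1 in 6 of 6 groups, as for 8.07% of tested genes. MZ minus FO was -0.08 ± 0.24 (95% confidence interval -0.63 to 0.47, limma adjusted p = 0.815).

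Ltb, the transmembrane chain of lymphotoxin, measured 12.67 and 12.62 in MZ homozygous, 12.92 and 12.85 in MZ heterozygous, and 11.17 and 13.05 in MZ wild-type cells. In FO cells it measured 13.13 and 13.34 in homozygous, 13.49 and 13.43 in heterozygous, and 13.87 and 13.61 in wild-type cells. All 6 MZ arrays lay below all 6 FO arrays, as for 17% of tested genes, and so did the arrays of each genotype, as for 42.8% of genes in homozygous cells, 42% in heterozygous cells and 33.7% in wild-type cells. The value of 11.17 stands apart and belongs to MZ wild-type replicate 1, the array with the low 5' signal. MZ minus FO over the 3 genotypes was -0.93 ± 0.28 (limma adjusted p = 0.0251), and -0.62 without that array (limma adjusted p = 0.00131). The call was lost in 8 of the 12 fits that left out 1 array (limma adjusted p from 0.0526 to 0.0591), namely FO wild-type replicate 1, FO homozygous replicate 2, and either array of the FO heterozygous, MZ heterozygous and MZ homozygous groups. It was also lost with each array centred on its median (-0.77, limma adjusted p = 0.0613) and with the 12 arrays quantile normalized together (-0.75, limma adjusted p = 0.0618).

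By genotype the Ltb difference, MZ minus FO, was -0.59 ± 0.48 in homozygous (limma adjusted p = 0.463), -0.58 ± 0.48 in heterozygous (limma adjusted p = 0.424) and -1.63 ± 0.48 in wild-type cells (limma adjusted p = 0.0427). The wild-type value was -0.69 (limma adjusted p = 0.0402) when MZ wild-type replicate 1 was left out. Leaving out either FO wild-type array ended the call (limma adjusted p = 0.16 and 0.11), as did leaving out any heterozygous or homozygous array (0.0641 to 0.0668). The homozygous change was -0.51 ± 0.48 in FO (limma adjusted p = 0.955) and 0.54 ± 0.48 in MZ cells (limma adjusted p = 0.852). In FO cells the homozygous arrays lay below the heterozygous and these below the wild-type arrays without overlap, as for 1.51% of tested genes. Homozygous FO arrays lay below wild-type ones for each of the 3 ligands, Tnf, Lta and Ltb, and none was called. The share of 15.9% of tested genes holds for 1 gene at a time, and none was computed for 3 genes together.

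**Figure D3:**
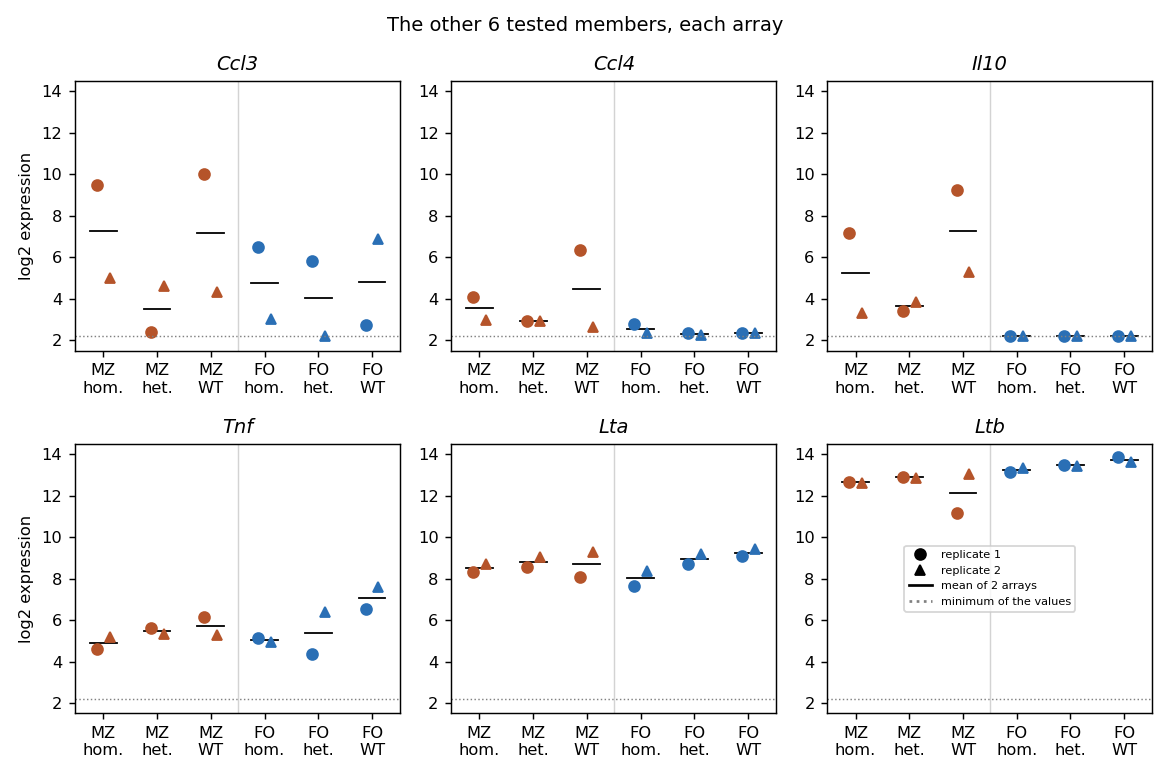
Level (log2 expression) of Ccl3, Ccl4, Il10, Tnf, Lta and Ltb on each array, by cell type (MZ orange, FO blue) and Bcl6 genotype, with circles for replicate 1, triangles for replicate 2, a bar at the mean of 2 arrays and a dotted line at the minimum. Ccl3 replicates lie 2.23 to 5.66 apart, Il10 rises above the minimum on MZ arrays, and Ltb of MZ wild-type replicate 1 (11.17) stands below its group's other array (13.05).

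Counted over the set, the wild-type comparison of MZ with FO cells called 3 of the 7 tested members, Il18 and Il10 higher and Ltb lower. Of all tested genes 22.2% passed, 10.7% higher and 11.5% lower. The heterozygous comparison called none, where 23.2% of tested genes passed, and the homozygous comparison none, where 19.1% did. The average of the 3 genotypes called 2, Il10 higher and Ltb lower, beside 16.2% of tested genes higher and 28.2% lower. Il10 passed the filter through MZ arrays alone, so its place in both counts was set by the filter and is a description. Counts of 0 to 3 of the 7 tested members thus stand beside backgrounds of 19.1% to 44.5%, and nothing particular to the set is read from them. The Il18 average over genotypes was 0.24 ± 0.10 (limma adjusted p = 0.0906), and it passed where each array was centred on its median (0.40, limma adjusted p = 0.0157) or the 12 arrays were quantile normalized together (0.46, limma adjusted p = 0.0109).

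**Figure D4:**
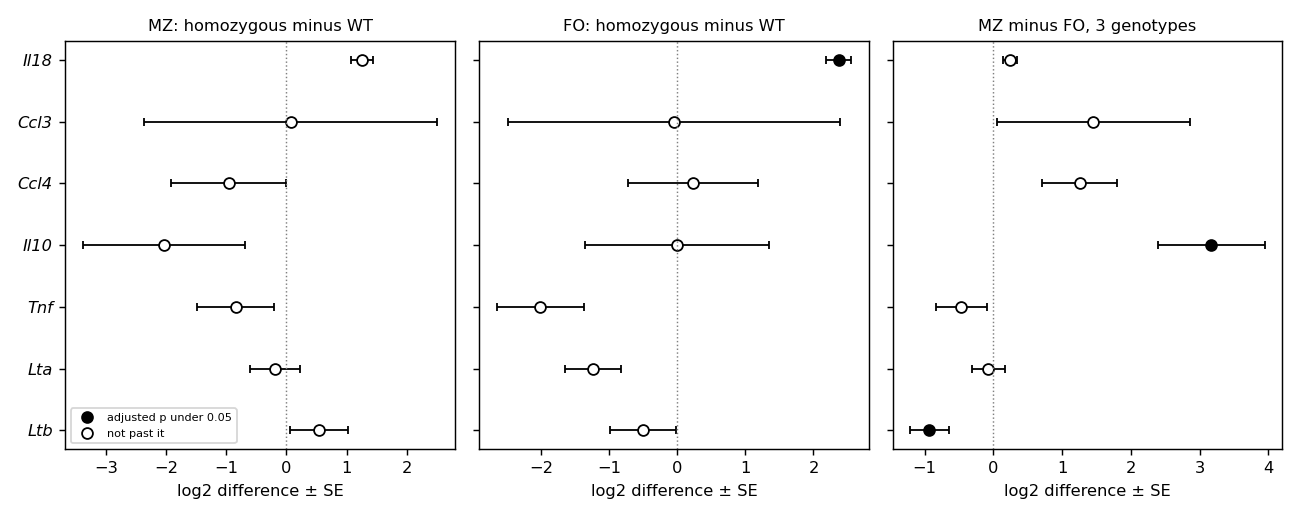
Change of each tested gene as a log2 difference with its SE (bars) from the limma model, homozygous minus wild-type in MZ cells (left), the same in FO cells (middle), and MZ minus FO averaged over 3 genotypes (right). Filled points passed an adjusted p of 0.05, namely Il18 in FO cells (2.37) and, between cell types, Il10 (3.17) and Ltb (-0.93). Il10 and Ccl4 passed the filter on low levels through MZ arrays alone, so their points between cell types are a description.

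Other cytokine and growth factor genes were compared the same way. Of 39 on the array, 10 passed the filter, and none was called with homozygous deletion, where 0.0645% to 0.462% of all tested genes were. Between MZ and FO cells 4 were higher, namely Csf2 (2.41), Il15 (2.48), Ebi3 (0.66) and Mif (0.40), and 3 were lower, namely Csf1 (-1.33), Tgfb1 (-1.69) and Il12a (-1.17). Of all tested genes 16.2% were called higher and 28.2% lower. Csf2 encodes GM-CSF and lay at 4.20 to 5.36 on MZ arrays, against 2.24 to 2.40 on FO arrays. Csf2 and Il15 lay below 4 on every FO array and passed the filter through MZ arrays alone. Their differences are thus given as a description, since genes that enter this way had to differ. Ebi3 and Il12a encode the subunits of IL-35, and they differed in opposite directions. Mif was the member with the smallest p for homozygous deletion in the average (0.38 ± 0.14, limma adjusted p = 0.453).

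Regulators of cytokine transcription and RNA decay were also listed. Of 27 on the array 26 were tested, and none was called with homozygous deletion, where 0.0645% to 0.462% of all tested genes were. The smallest p in FO cells was that of Ahr, the aryl hydrocarbon receptor, at 3.32 ± 0.80 (limma adjusted p = 0.203). In the average it was that of Bcl3, an atypical inhibitor of NF-kB, at -0.46 ± 0.10 (limma adjusted p = 0.129). Between MZ and FO cells 2 were higher, Prdm1 (3.55 ± 0.21), the plasma cell regulator, and Ahr (3.12 ± 0.46), and 11 were lower. These 11 were Maf, Zfp36l2, Bcl3, Nfkbia, Nfkb2, Stat3, Rela, Zc3h12a, Irf8, Nfkbib and Relb, with a list median of -0.55, against -0.17 over all tested genes. Of all tested genes 16.2% were called higher and 28.2% lower, and the list was not tested as a set. Prdm1 lay below 4 on every FO array and passed the filter through MZ arrays alone, so its difference is a description. Maf, a transcription factor known to promote Il10 in several immune cells, was lower in MZ cells by 4.85 (-4.85 ± 0.50, limma adjusted p = 8.39e-05), opposite in direction to Il10.

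Genes with the most similar levels over the 12 arrays were ranked by Pearson's r, as a description that carries group differences and shared array quality alike. For Il18 they were Syne2 (0.968), Atad3a (0.924) and Ppp1r14b (0.917), the last also one of the 8 stepwise genes. For Il10 they were Cish (0.966), Rab30 (0.958) and Tnfaip2 (0.949), and for Ltb Zdhhc18 (0.990), Tmem243 (0.981) and Sh3bp2 (0.977). For Ccl3 they were Hilpda (0.941), Rhob (0.930) and Ciart (0.927), and for Ccl4 Tnfaip2 (0.977), Map2k6 (0.968) and Dnajb12 (0.966). For Lta they were Tram1 (0.970), Sdhaf2 (0.867) and Srpk3 (0.842), and for Tnf Mto1 (0.876), U2surp (0.867) and Crb3 (0.862). Ranked instead by deviations from the group means, Ccl3 stood nearest to Plk2 (0.996), Rgs1 (0.995) and Myo9b (0.992). Il18 stood nearest to Adamts16 (0.931), Ercc1 (0.917) and Elp6 (0.907) on that measure, and its own deviations had r = 0.13 with those of Ccl3.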

How the data were processed

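The table deposited by the authors holds a log2 expression value for each probe set and array. The submitters' processing notes name GCRMA, of a version not given in the sources used here. Per the labels' protocols, TRIZOL was used for extraction and a 3' in vitro transcription kit for labelling. GCRMA corrects background and normalizes quantiles, so low values collect at a minimum. Of 45101 probe sets, 34958 had 1 gene symbol, giving 18194 genes by the highest mean.

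The lmFit and eBayes functions of limma 3.58.1 (R 4.3.3) fitted the 6 group means to all 12 arrays. Two-sided p-values were adjusted by Benjamini-Hochberg over 9307 genes. They measure only the spread between these arrays, possibly a technical one. An exact permutation test of 2 against 2 arrays cannot go below 0.333. The script was tested on simulated data. The genes, lists and comparisons were chosen with earlier results of these data known. Named were all members, 3 nearest genes of each, and of each list the called genes and up to 4 with the smallest p. Values are mean ± SD and changes ± SE. Alternatives covered filter, probe sets, scaling, variance model, array weights, arrays used, replicate block and each array left out.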

Additional observations from a re-analysis of the deposited data

Results flagged for a closer look

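The difference of Il18 between MZ and FO cells had 1 sign in homozygous and the other in wild-type and heterozygous cells, on every array. In homozygous cells both MZ arrays were lower than both FO arrays, while in heterozygous and in wild-type cells both were higher. Neither the homozygous nor the heterozygous difference passed (limma adjusted p = 0.263 and 0.315). Under other settings with all 12 arrays the homozygous difference ran from -0.33 to -0.08. The MZ minus FO difference in homozygous cells minus that in wild-type cells was -1.113 on the log2 scale, and the model's test of it over all genes did not pass (limma adjusted p = 0.604). The same difference set against heterozygous cells was -0.6018. It was not tested.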

How the results depend on the processing

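Of 2184 changes of the tested genes recomputed under other settings, 2043 kept direction and side of the threshold, 55 lost a call, 20 gained one, and 66 changed sign between values that both missed it. Il18 in the averaged homozygous change kept its call under every setting run. With FO arrays alone, 0 of the genes were called for homozygous deletion in FO cells, against 1, and with array weights 1 was called between wild-type MZ and FO cells, against 3. With each array left out in turn, the genes called ranged from 0 to 4 between wild-type, 0 to 1 between heterozygous, 0 to 1 between homozygous and 1 to 3 between averaged MZ and FO cells. They ranged from 0 to 3 for homozygous and 0 to 2 for heterozygous change in MZ cells, and from 0 to 1 for the difference of the homozygous changes. The upper values of the last 3 ranges came without MZ wild-type replicate 2, which left the array of low 5' signal as the lone control. There Ccl4 (-2.80, limma adjusted p = 0.0146) and Ltb (1.48, limma adjusted p = 0.00776) passed for homozygous change in MZ cells, and 325 genes in all, against 6.

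Same-numbered arrays deviated together among FO heterozygous, FO homozygous, MZ wild-type and MZ homozygous cells (r from 0.45 to 0.77), but not between these and FO wild-type or, beyond 0.12, MZ heterozygous cells (r down to -0.26); these last 2 groups had r = 0.58 with each other. A correlation over 0.1 in every pair of groups was therefore not met, and the numbers were not taken to pair the arrays. With the replicate block, 61 genes were called for homozygous deletion in FO cells, against 40, and 67 in the average, against 43, of which 1 was Il18 in both. With FO wild-type numbers crossed, chosen after seeing the data, these counts were 49 and 49. The unfiltered model called 17 in FO cells and 13 in the average, the model of all probe sets 14 in the average and FO arrays alone 5. Over all settings the counts ran from 0 to 415 for heterozygous change in MZ cells, from 1 to 107 for the difference of the homozygous changes and from 1307 to 8089 between wild-type MZ and FO cells. Without a filter 10670 genes passed between averaged MZ and FO cells, against 4137. Precision is limited by 2 arrays a group, and levels near the minimum give no reliable fold.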
